A study of Mus musculus with 12 samples.

Results

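Mitochondrial ribosomal proteins were followed in bone marrow-derived macrophages (BMDM) that had or had not received lipopolysaccharide (LPS). Genes were taken by symbol, as every row of the deposited expression table that starts with Mrpl or Mrps followed by a digit, and 4 symbols containing -ps were dropped. This gave 77 of 43280 genes, of which 76 passed the filter on low values, against 12086 genes tested in all. The symbols hold 26 proteins of the small subunit, 50 of the large subunit and Mrps36. Mrps18a and Mrps30 were counted with the large subunit, where they are found in spite of their names, and Mrps36 is an adaptor of the 2-oxoglutarate dehydrogenase complex and not a ribosomal protein.

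The mitochondrial ribosome translates the few mRNAs that mitochondrial DNA (mtDNA) encodes, all of them for subunits of the respiratory chain and the ATP synthase. Its RNA comes from mtDNA, while its proteins are encoded in the nucleus, made in the cytosol and imported. Part of them have counterparts in bacterial ribosomes and the others are found in mitochondria only. Macrophages that respond to LPS are known to shift from oxidative phosphorylation towards glycolysis.

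The BMDM were grown with M-CSF from marrow of wild type (wt) and Treml4-/- mice, both on the C57BL6 background. Treml4 encodes a receptor of the TREM family on myeloid cells, and the study asked how its absence changes macrophage programs. Cells received PBS as vehicle (M0) or 100 ng/ml LPS for 8 h (M1-8 h) or 12 h (M1-12 h), which drives M1 polarization. Each of the 6 conditions had 2 biological replicates, so 12 libraries of poly(A) RNA were available. The labels do not say whether replicates came from separate mice, so p-values measure the spread between these cultures.

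The libraries held 48008751 to 58500792 reads on genes, and 1 read was worth 0.0171 to 0.0208 CPM, the share of a library's reads on a common scale. Treml4 was listed at 0 in all 6 Treml4-/- libraries and at 3.95 to 13.2 CPM in the wt libraries, and a count of 0 allows up to 0.0625 CPM in the shallowest library. All 8 inflammatory genes used to check the LPS labels, such as Nos2 and Il6, were called higher at 8 h. The 7 macrophage markers were all expressed and summed to 20468 to 27537 CPM at M0, to 9951 to 12895 CPM at 8 h and to 9712 to 10593 CPM at 12 h. They did not move alike. From M0 to 8 h the mean of Lyz2 went from 12236 to 4949 CPM and that of Csf1r from 6047 to 1162 CPM, and Cd68 and Emr1 (Adgre1) were lower too. Itgam rose from 940 to 1166 CPM, Mertk from 33.3 to 275 CPM and Fcgr1 from 63.0 to 1193 CPM. Of 14 markers of other cells, 12 stayed under the filter, and the list summed to 10.0 to 28.0 CPM at M0, 40.5 to 59.1 CPM at 8 h and 46.2 to 57.4 CPM at 12 h, most of it from S100a8. The part of these marker changes in the results below was not tested. In bulk RNA, fewer cells of a type and less RNA per cell cannot be told apart.

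Nearly all mitochondrial ribosomal protein genes took a smaller share of the reads after LPS. Summed over the 77 genes, the M0 libraries held 1906 to 2095 CPM, the 8 h libraries 977 to 1099 CPM and the 12 h libraries 887 to 913 CPM. The 3 ranges do not overlap, and the M0 mean was 1.93 times the mean at 8 h and 2.23 times that at 12 h. Small subunit genes summed to 539 to 589 CPM at M0, 246 to 284 CPM at 8 h and 203 to 214 CPM at 12 h. Large subunit genes went from 1357 to 1495 CPM at M0 to 717 to 811 CPM at 8 h and 679 to 701 CPM at 12 h. The small subunit sum at M0 was thus 2.14 times that at 8 h and the large subunit sum 1.86 times.

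CPM divides by the library total, and that choice weighs on every LPS comparison here. The median log2 fold change of all 12086 tested genes was -0.72 at 8 h and -0.76 at 12 h against M0. The 100 most abundant genes took 27.9% to 30.4% of the reads at M0, 32.4% to 33.5% at 8 h and 36.1% to 37.3% at 12 h. Under median of ratios scaling, which sets the typical gene near no change, these medians were -0.04 at both times. Counts of calls against M0 are therefore given under both scalings. Between them 16 of the 76 genes changed sign at 8 h and 17 at 12 h, of which 0 were called on both. A gene was called where limma's Benjamini-Hochberg adjusted p was under 0.05 and the fold change at least 1.4. LPS changes are means over both genotypes of log2(CPM + 1), a scale that understates changes of weakly expressed genes.

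At 8 h of LPS 66 of the 76 tested genes were called lower and 1, Mrpl52, was called higher. Their median log2 fold change was -1.06, with a range from -2.46 to 0.77. Over all tested genes 59.8% were called lower and 17.1% higher. Under median of ratios scaling 24 were called lower and 8 higher, with a median of -0.31, where 31.4% of all genes were called lower and 31.1% higher. The share called lower was thus near that of all genes on this scale, while fewer were called higher. The 8 genes higher on it were Mrpl3, Mrpl13, Mrpl27, Mrpl39, Mrpl46, Mrpl52, Mrpl54 and Mrps18c.

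At 12 h 67 genes were called lower and Mrpl52 alone higher, with a median log2 fold change of -1.35. The shares over all genes were 60.3% lower and 16.3% higher. Under median of ratios scaling 39 were called lower and 5 higher (Mrpl27, Mrpl39, Mrpl52, Mrps18c and Mrps22), with a median of -0.56. On that scale 32.6% of all genes were called lower and 32.7% higher, so the members called lower, 51.3%, stood above the background and those called higher, 6.58%, below it.

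**Figure D1:**
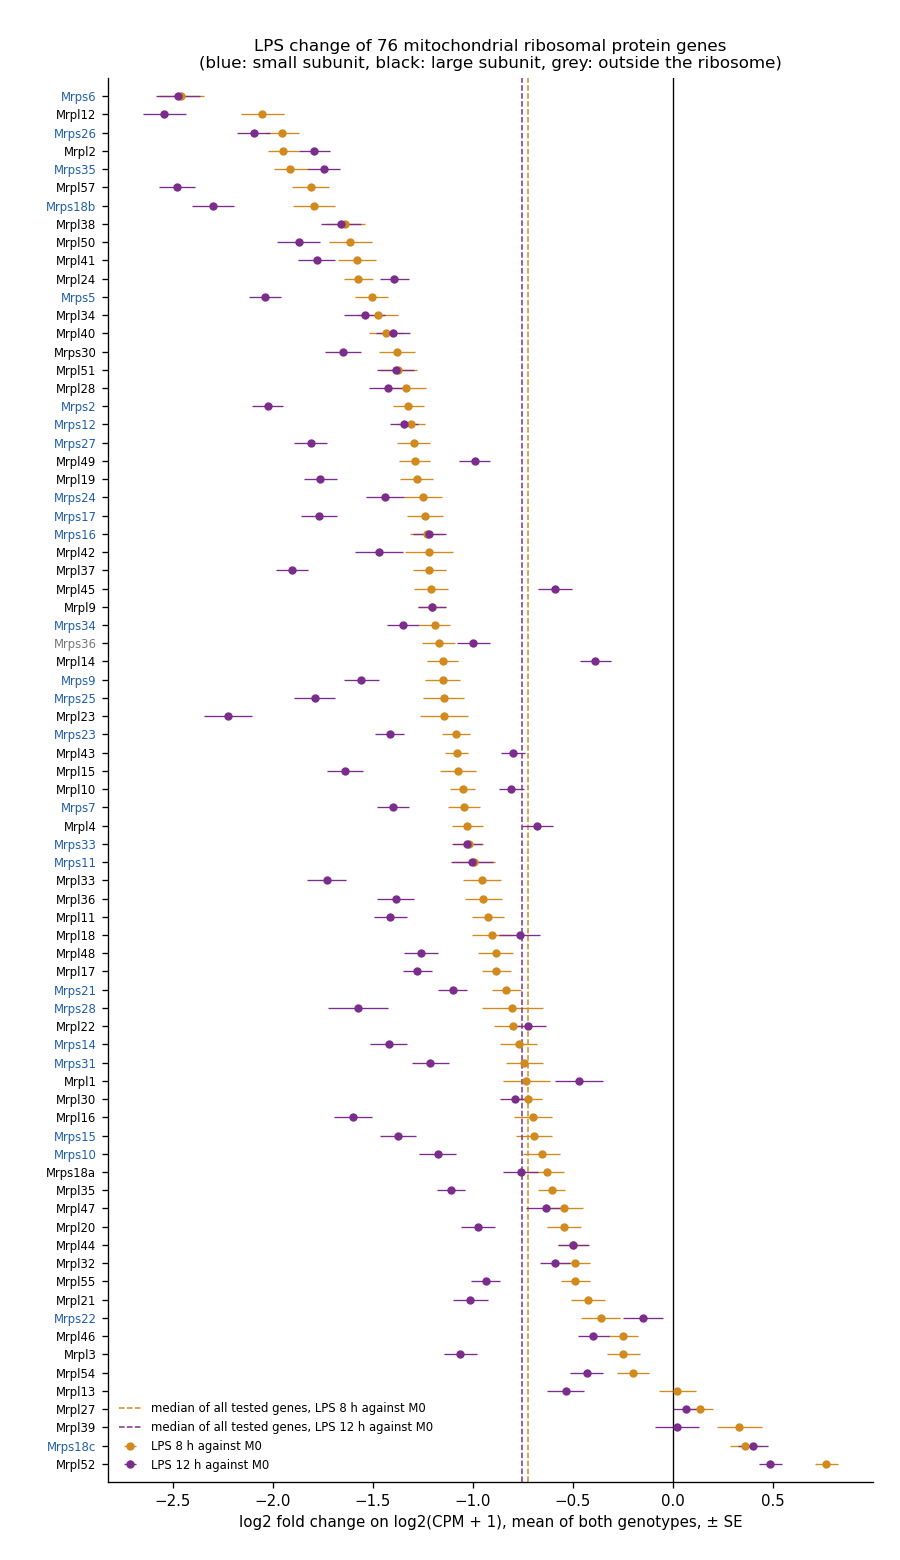
Log2 fold change (± SE) of each of the 76 tested genes at 8 h and 12 h of LPS against M0, on log2(CPM + 1), sorted by the change at 8 h, with small subunit names in blue and dashed lines at the median of all tested genes. Mrps6 is at the top with -2.46 at 8 h and Mrpl52 at the bottom with 0.77, and only 5 genes lie right of 0 at 8 h.

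Among small subunit proteins the largest change was that of Mrps6, a protein with a bacterial counterpart. Its M0 libraries held 13.3 and 16.2 CPM in wt and 17.3 and 15.8 CPM in Treml4-/- cells. At 8 h it was at 1.98 and 2.41 CPM in wt and 2.10 and 1.63 CPM in Treml4-/- cells, and at 12 h at 1.52, 2.26, 2.19 and 2.03 CPM. All 8 LPS libraries lay far below all 4 M0 libraries, and Mrps6 fell by 2.46 on the log2 scale at 8 h (SE 0.11, limma adjusted p = 1.44e-09). Under median of ratios scaling it was still called, at -1.77. In GENCODE 19.9% of its exon bases are shared with genes on the same strand, among them Slc5a3, a myo-inositol transporter, so its level is less certain than that of a gene that stands alone.

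Mrps26 and Mrps35, both found in mitochondria only, fell at 8 h as well. Mrps26 had 19.4 to 20.5 CPM in the M0 libraries and 4.04 to 4.90 CPM at 8 h, a log2 fold change of -1.95 (SE 0.08, limma adjusted p = 7.38e-10). Mrps35 went from a mean of 13.7 ± 0.741 CPM (SD, n = 4) to 2.90 ± 0.238 CPM, a log2 fold change of -1.91. Both were called under median of ratios scaling, at -1.23 and -1.22. Mrps18b, a mammalian relative of bacterial S18 like Mrps18a and Mrps18c, fell by 1.79 at 8 h and by 2.3 at 12 h, and was called on both scales.

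The relatives of S18 did not move alike. Mrps18b is a part of the small subunit beside Mrps18c, while Mrps18a sits in the large one. Mrps18b had 13.8, 17.7, 16.3 and 15.2 CPM at M0 and 2.29 to 2.58 CPM at 12 h. In GENCODE 30.5% of its exon bases are shared with Gm16279 on the opposite strand. As the use of strand in counting is not given, its level is less certain. Mrps18c had 18.1 to 21.6 CPM at M0, 20.8 and 24.3 CPM at 8 h in wt and 28.0 and 30.2 CPM at 8 h in Treml4-/- cells, and 25.1 to 28.4 CPM at 12 h. Its log2 fold change was 0.36 at 8 h and 0.40 at 12 h, under the fold limit on CPM, and 1.12 and 1.21 under median of ratios scaling, where it was called higher. As 23.2% of its exon bases are shared on the same strand with Gm43511, its level is less certain too. Mrps18a had a mean of 46.0 ± 2.72 CPM at M0 and 29.5 ± 3.33 CPM at 8 h, with log2 fold changes of -0.63 and -0.76 at 8 h and 12 h on CPM that turned to 0.15 and 0.07 under median of ratios scaling.

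Mrps12, the counterpart of bacterial S12 at the decoding centre, had 18.5 to 19.5 CPM at M0 and 6.38 to 7.95 CPM at 8 h. It fell by 1.31 at 8 h (SE 0.07, limma adjusted p = 5.38e-09) and by 1.34 at 12 h, and it was called under median of ratios scaling too. Mrps36, the protein outside the ribosome, had a log2 fold change of -1.17 at 8 h, near the median of the ribosomal genes, and was not called under median of ratios scaling (-0.47). Mrps22, a small subunit protein found in mitochondria only, was not called on CPM at either time, with -0.36 and -0.15, and its M0 and LPS libraries overlapped. After median of ratios scaling these values were 0.32, not called, and 0.59, called higher.

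In the large subunit Mrpl12 stood out. It is the counterpart of bacterial L7/L12, the stalk that contacts translation factors, and is also reported to bind the mitochondrial RNA polymerase. Its M0 libraries held 42.8, 47.7, 50.4 and 44.2 CPM, its 8 h libraries 10.8 and 12.5 CPM in wt and 10.7 and 7.96 CPM in Treml4-/- cells, and its 12 h libraries 6.50, 8.14, 6.69 and 7.17 CPM. It fell by 2.05 at 8 h (SE 0.11, limma adjusted p = 4.96e-09), by 2.54 at 12 h and by a further 0.49 between the LPS times, where the 8 h and 12 h libraries overlapped and the call was lost under median of ratios scaling (-0.45). Mrpl2, a counterpart of the protein L2 near the peptidyl transferase centre, had 33.4 to 36.4 CPM at M0, 7.28 to 9.04 CPM at 8 h and 9.07 to 9.82 CPM at 12 h, and fell by 1.95 at 8 h. It was called at both times on either scale. Mrpl57, found in mitochondria only, went from 17.4 to 18.2 CPM at M0 to 3.95 to 4.99 CPM at 8 h and 1.98 to 2.64 CPM at 12 h, with no overlap between any of the times.

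Mrpl52 rose. This large subunit protein has no bacterial counterpart. Its libraries held 23.5, 24.8, 22.9 and 23.9 CPM at M0, 41.9, 40.0, 41.8 and 40.9 CPM at 8 h and 35.9, 34.4, 31.9 and 32.8 CPM at 12 h. Each time stood apart from the others in all 4 libraries. The log2 fold change was 0.77 at 8 h (SE 0.06, limma adjusted p = 1.45e-07) and 0.49 at 12 h (adjusted p = 8.62e-06), and 1.53 and 1.30 under median of ratios scaling. At 12 h its fold change was close to the limit of 1.4, and leaving out replicate 1 of wt M0, wt M1-12 h or Treml4-/- M0, or replicate 2 of Treml4-/- M1-12 h, took away the call and left 0 genes called higher at 12 h. GENCODE shows no other gene over its exons.

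Mrpl27, Mrpl39 and Mrpl13 were not called at 8 h on CPM. Mrpl27, a counterpart of L27 at the peptidyl transferase centre, had 31.3 to 38.1 CPM at M0 and 36.3 to 41.5 CPM at 8 h, so the ranges overlapped, and its log2 fold changes of 0.14 at 8 h and 0.07 at 12 h became 0.91 and 0.89 under median of ratios scaling. Mrpl39 had a log2 fold change of 0.33 at 8 h and Mrpl13 of 0.02. Mrpl44, an RNase III-like protein of the large subunit, had a mean of 22.2 ± 2.03 CPM at M0 and 15.4 ± 1.55 CPM at 8 h, and its log2 fold change of -0.50 on CPM, just past the fold limit, turned to 0.26 under median of ratios scaling.

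**Figure D2:**
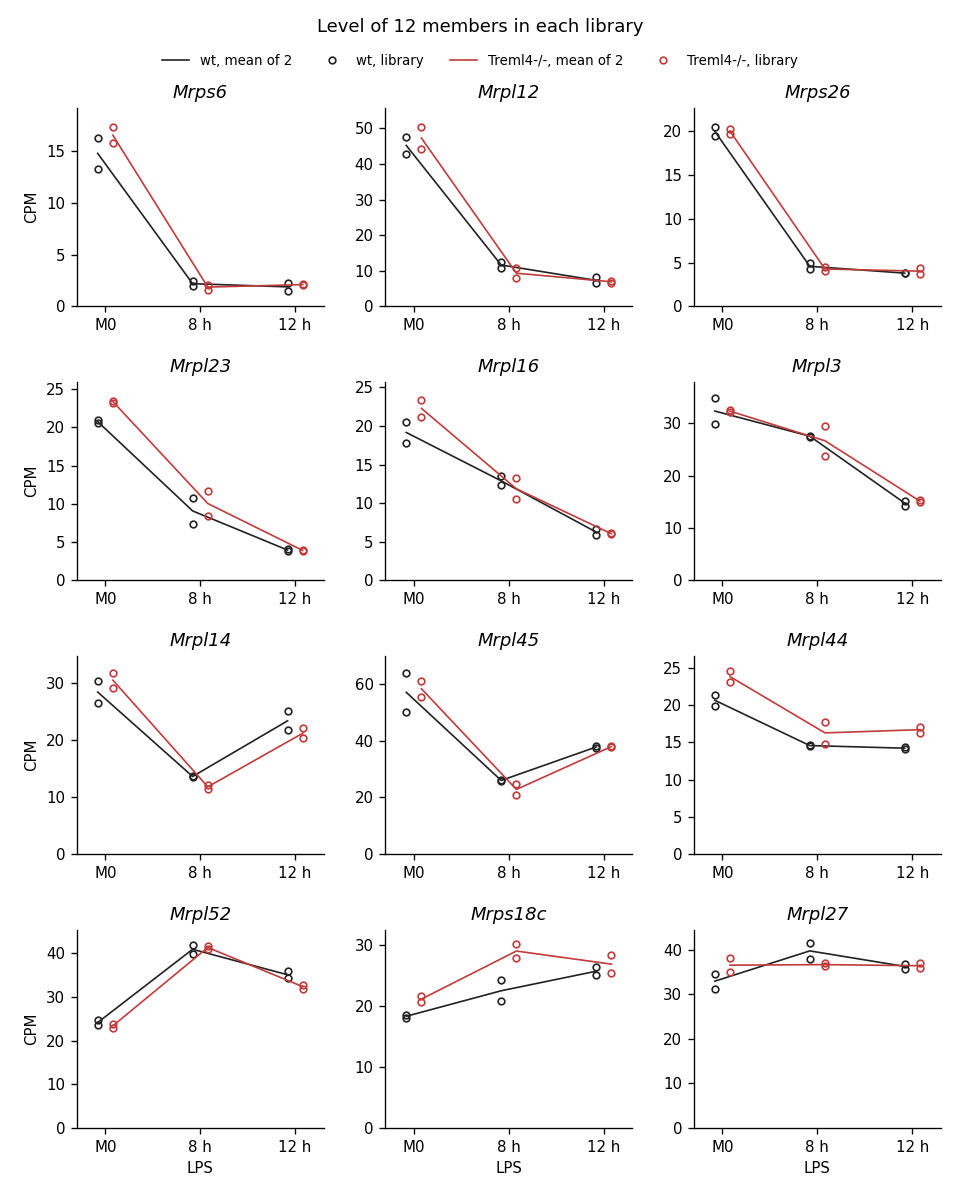
CPM of 12 genes in each library at M0, 8 h and 12 h of LPS, with open circles for single libraries and lines through the mean of 2 replicates, wt in black and Treml4-/- in red. Mrps6, Mrpl12 and Mrps26 are low at both LPS times, Mrpl23, Mrpl16 and Mrpl3 are lower at 12 h than at 8 h, Mrpl14 and Mrpl45 are lowest at 8 h, and Mrpl52 is highest at 8 h.

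The time courses differed between genes. From 8 h to 12 h of LPS 22 genes were called lower and 2, Mrpl14 and Mrpl45, higher, with a median log2 fold change of -0.24. Of all tested genes 18.7% were called lower and 13.5% higher. Under median of ratios scaling the counts were 17 and 2 with a median of -0.20, beside 17.1% lower and 15.5% higher over all genes. This comparison moved little with scaling, since the median of all genes was -0.06 on CPM.

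Mrpl23, the counterpart of L23 at the exit of the nascent chain, had the largest change between the LPS times. It had 20.6 to 23.5 CPM at M0, 10.8 and 7.32 CPM at 8 h in wt, 11.6 and 8.45 CPM at 8 h in Treml4-/- cells and 3.80 to 4.03 CPM at 12 h. It fell by 1.15 in the first 8 h, which was not called under median of ratios scaling (-0.40), and by a further 1.08 to 12 h (SE 0.12, limma adjusted p = 1.91e-05). Mrpl16 fell by 0.90 between the LPS times, from 10.5 to 13.5 CPM at 8 h to 5.81 to 6.69 CPM at 12 h. Mrpl3, a counterpart of L3, had 29.9 to 34.7 CPM at M0 and 23.8 to 29.5 CPM at 8 h, a change that was not called on CPM and called higher under median of ratios scaling (0.52), and 14.3 to 15.3 CPM at 12 h, a fall of 0.81 from 8 h. Mrpl33, Mrps28 and Mrps2 fell by 0.78, 0.77 and 0.70 between the LPS times, and all 6 falls between the LPS times were called under median of ratios scaling as well.

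Mrpl14 and Mrpl45 were lower at 8 h than at either other time. Mrpl14 is a counterpart of L14 at the interface of the subunits, and Mrpl45 lies at the exit tunnel and anchors the ribosome to the inner membrane. Mrpl14 had 26.5 to 31.9 CPM at M0, 11.5 to 13.7 CPM at 8 h and 20.3 to 25.1 CPM at 12 h, with no overlap. It fell by 1.15 at 8 h and rose by 0.76 from 8 h to 12 h (SE 0.08, limma adjusted p = 9.71e-06), so that its change at 12 h against M0 was -0.39 on CPM and 0.43 under median of ratios scaling, neither of them called. Mrpl45 had 50.2 to 63.8 CPM at M0, 20.8 to 26.2 CPM at 8 h and 37.3 to 38.2 CPM at 12 h, and rose by 0.62 from 8 h to 12 h (limma adjusted p = 9.47e-05). Its change at 12 h against M0 was -0.59 on CPM and 0.24, not called, under median of ratios scaling. The falls of both genes at 8 h were not called on that scale (-0.39 and -0.43), while the rises after 8 h were.

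**Figure D3:**
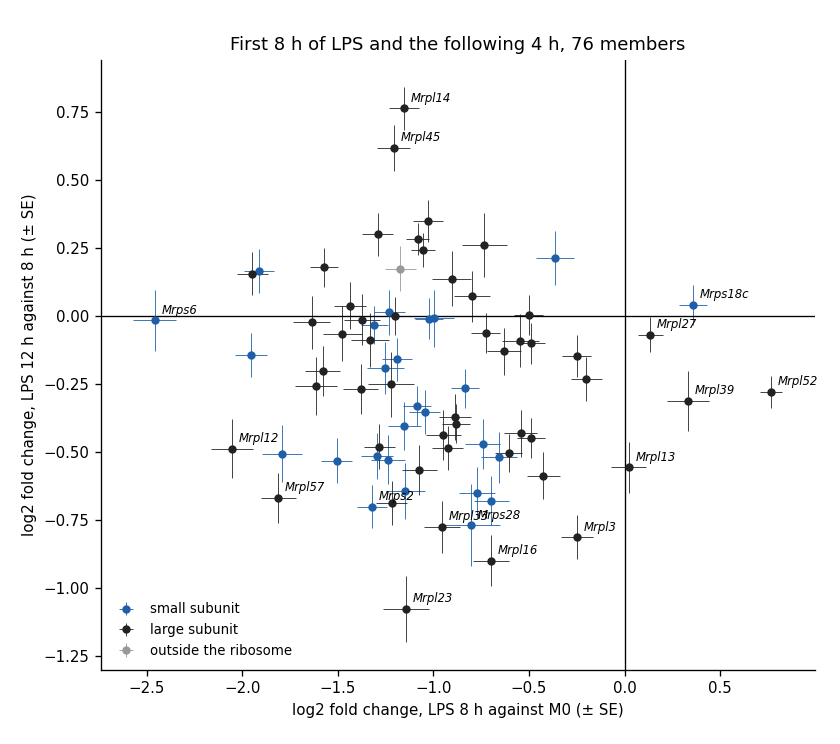
Log2 fold change from M0 to 8 h of LPS (horizontal) and from 8 h to 12 h (vertical), each ± SE, for the 76 tested genes on log2(CPM + 1), with small subunit genes in blue. The 8 h libraries enter both axes with opposite sign, so no relation between the axes is read here. Mrpl23 is lowest at -1.08 and Mrpl14 highest at 0.76 on the vertical axis.

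By subunit, 24 of 26 small subunit genes were called lower at 8 h with a median of -1.15, and 41 of 49 large subunit genes with a median of -0.96. At 12 h the counts were 24 of 26 with a median of -1.42, and 42 of 49 with a median of -1.11. Of all tested genes 59.8% were called lower at 8 h and 60.3% at 12 h. After median of ratios scaling 10 small and 14 large subunit genes were lower at 8 h, and 18 and 21 at 12 h. On that scale 31.4% of all genes were lower at 8 h and 32.6% at 12 h. Genes with a bacterial counterpart had a median of -0.95 at 8 h (41 of 46 called lower) and those found in mitochondria only -1.21 (24 of 29 called lower). After median of ratios scaling 12 of the 46 and 12 of the 29 were lower at 8 h, and 4 of each class were higher. The shares over all genes on that scale were 31.4% lower and 31.1% higher. The difference between these classes was not tested.

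Per kilobase of exon, the level at M0 ran over a wide range. Mrps21 was highest at 58.5 ± 1.59 CPM per kb (SD, n = 4), followed by Mrpl54 at 37.9 ± 2.06, Mrpl27 at 35.2 ± 2.85 and Mrpl28 at 35.1 ± 3.68 CPM per kb. The last 3 neighbours did not differ beyond their spread. At the low end stood Mrps22 at 1.87 ± 0.266, Mrps35 at 1.59 ± 0.0859 and Mrpl47 at 1.28 ± 0.149 CPM per kb, for which the annotated exon length counts every transcript end and may exceed the length in use. Mrpl53 was listed at 0 in all 12 libraries. In GENCODE 88.0% of its exon bases are shared on the same strand with Gm42688, so the 0 is not read as a lack of expression.

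Genes that serve the mitochondrial ribosome under other names were lower on CPM as well. All 6 subunit genes without the usual symbol (Dap3, Chchd1, Aurkaip1, Ptcd3, Gadd45gip1 and Ict1, the older symbol of Mrpl58) were called lower at 8 h, with a median of -1.14. Ict1, a peptidyl-tRNA hydrolase built into the large subunit, was at -1.69 and Gadd45gip1 at -1.56. These 2 of the 6 were the ones also called under median of ratios scaling, at -0.95 and -0.82. For this and the lists that follow, the shares over all tested genes at 8 h were 59.8% lower and 17.1% higher on CPM. Under median of ratios scaling they were 31.4% lower and 31.1% higher.

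A list of 30 genes held factors for assembly of the mitochondrial ribosome and, with them, the mRNA-binding pair Lrpprc and Slirp. Of these 26 were called lower at 8 h and Slirp was called higher, with a median of -1.40. With the other scaling 18 were lower and 3 higher, beside 31.4% and 31.1% of all genes. The largest falls were those of Rbfa, which helps to mature the small subunit (-2.97, limma adjusted p = 2.45e-11), Mtg1, a GTPase of large subunit assembly (-2.20), and Noa1, a GTPase of small subunit assembly (-2.09). Slirp, a protein that binds mitochondrial mRNAs with Lrpprc, rose by 0.90 (limma adjusted p = 1.52e-07) while Lrpprc fell by 1.41.

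Of 13 translation factors 12 were called lower at 8 h, led by Oxa1l, which inserts new proteins into the inner membrane (-2.04), Mrrf, which recycles the ribosome (-1.89), and Taco1, an activator of mt-Co1 translation (-1.50). Gfm1, an elongation factor, was not called (-0.27). Of all tested genes 59.8% were called lower on CPM. With the other scaling 6 of the 13 were lower and Gfm1 was higher, beside 31.4% and 31.1% of all genes. Of 17 mitochondrial aminoacyl-tRNA synthetases 16 were called lower, with Mars2 at -2.31 and Cars2 at -2.24, and under median of ratios scaling 13 were lower and Lars2 higher. Of 10 tested genes for transcription and upkeep of mtDNA 9 were lower, among them Peo1, the mitochondrial helicase (-2.46), Polrmt, the RNA polymerase (-2.27), and Polg, the DNA polymerase (-1.95). Tefm, an elongation factor of that polymerase, was the 1 called higher (0.56). On the median of ratios scale 6 were lower, Tefm was higher and Tfam, which packages mtDNA, was not called (-0.58 on CPM, 0.16 on that scale).

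The mRNAs that the ribosome translates stood apart from its proteins. Of 12 tested mtDNA-encoded mRNAs limma called 0 lower at 8 h and 2, mt-Nd6 (1.21) and mt-Atp6 (0.62), higher. At 12 h it called 3 lower and 0 higher. The 8 h libraries of mt-Atp6 (8.26 to 24.3 CPM) overlapped those at M0 (7.76 to 9.91 CPM). Levels differed widely, with an M0 mean of 8.80 CPM for mt-Atp6 and 3793 CPM for mt-Co1. For mt-Atp8 every M0 library was under the filter, which it passed through Treml4-/- LPS libraries, so it is left out of the counts that follow. Under median of ratios scaling all 11 others were called higher at 8 h and 7 of them at 12 h, beside 31.1% and 32.7% of all genes. Their sum varied widely between libraries, from 5515 to 8188 CPM at M0, 4902 to 10966 CPM at 8 h and 5625 to 7516 CPM at 12 h, and these ranges overlap. At 8 h the wt libraries held 6372 and 4902 CPM and the Treml4-/- libraries 7913 and 10966 CPM. The libraries were selected for poly(A), and most mitochondrial mRNAs carry short tails of their own. How this selection bears on single mRNAs such as mt-Nd6 was not tested, so their levels and calls are less certain.

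**Figure D4:**
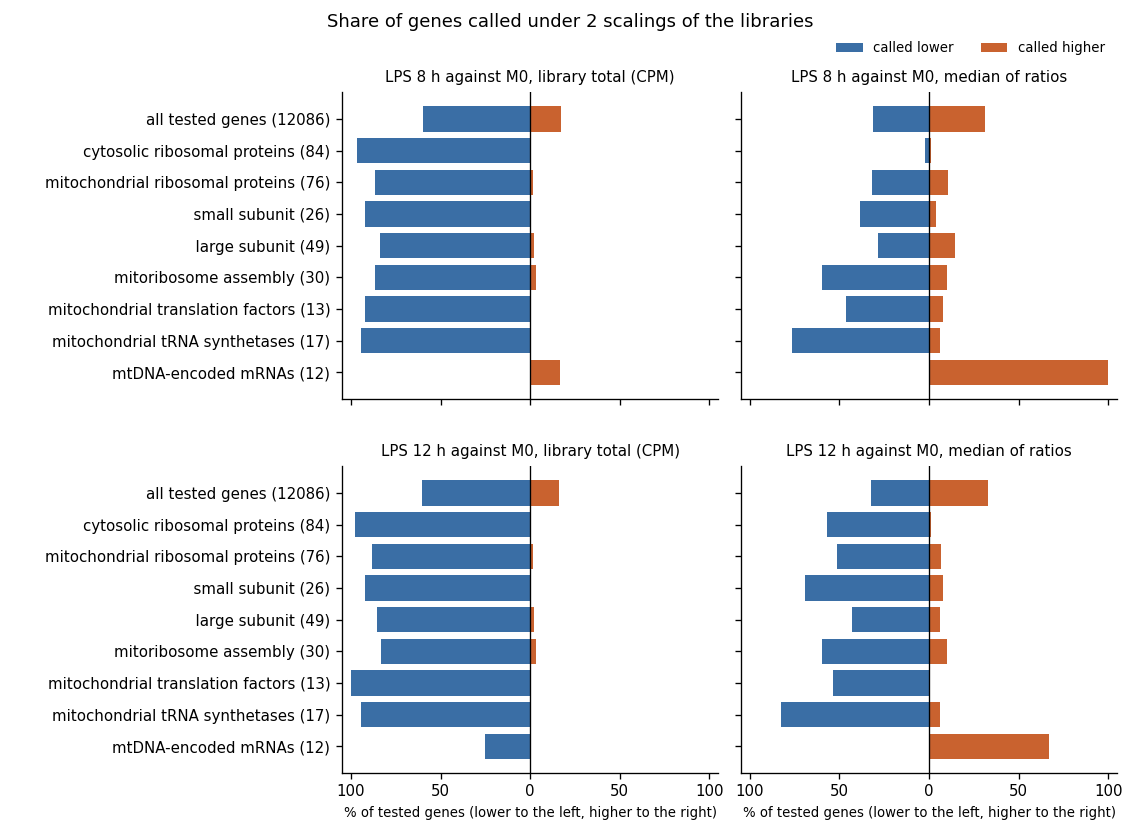
Percent of tested genes called lower (blue, left) and higher (orange, right) at 8 h and 12 h of LPS against M0. Library totals and median of ratios scaling are both shown, with the number of tested genes in brackets. The 12 mtDNA-encoded mRNAs include mt-Atp8, and the assembly set includes Lrpprc and Slirp. Cytosolic ribosomal proteins go from 96.4% called lower at 8 h under library totals to 2.38% under median of ratios scaling, while mitochondrial ribosomal proteins go from 86.8% to 31.6%.

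Cytosolic ribosomal proteins, which build the ribosome of the cytoplasm, were set beside them. At 8 h 81 of 84 tested were called lower on CPM with a median of -0.87, but under median of ratios scaling 2 were lower and 1 higher with a median of -0.08. At 12 h their median was -1.42 on CPM and -0.58 under median of ratios scaling, where 48 were called lower. The difference between the 2 ribosomes was not tested. Of 11 cell cycle genes, with Top2a, Cdk1 and Ccnb1 in the lead, all 11 were called lower at 8 h on CPM and 8 under median of ratios scaling. They summed to 1706 and 1041 CPM in wt and 1806 and 1842 CPM in Treml4-/- cells at M0, 260 to 331 CPM at 8 h and 215 to 265 CPM at 12 h, so that 1 wt library stood below the other M0 libraries. Their part in the change of the mitochondrial ribosomal genes was not tested.

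Of 9 tested regulators of mitochondrial biogenesis 4 were called lower and 2 higher at 8 h. Myc fell by 2.71, Pprc1, a coactivator of the PGC-1 family, by 2.03, and Nrf1, a factor that binds promoters of nuclear genes for mitochondria, by 1.17. Max, the partner of Myc, rose by 2.43 and Ppargc1b, a PGC-1 coactivator, by 0.81. With the other scaling Nrf1 was not called (-0.40) and Esrra, an orphan nuclear receptor, was called higher (1.19). Gabpa, the ETS factor of the same promoters, was not called on CPM (-0.30).

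Promoters of mitochondrial ribosomal genes are known to carry sites for NRF1, for the ETS factor GABP and for YY1. RefSeq windows of 250 bases before and 50 after the start, in GRCm38.p6, were matched for 68 of the 77 genes. GCGCANGCG, the NRF1 letters, stood on either strand in 16 of the 68 (23.5%), beside 15.9% of 8702 tested genes with a window. CCGGAAG, the ETS letters, stood in 25 (36.8%, beside 21.4%), AAGATGGCG, the YY1 letters, in 8 (11.8%, beside 3.87%), and CACGTG, the E-box, in 5 (7.35%, beside 12.0%). These are shares of letter matches and not of bound sites.

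Shown are 100 bases before the annotated gene, 5′ to 3′, for 3 genes from the low end of the LPS change, for Mrpl45 and for 2 genes from the high end, chosen after their values were seen, with NRF1 or ETS letters in capitals. All 6 lie on the plus strand, Mrps6 at chr16:92058170-92058269, Mrpl12 at chr11:120484513-120484612, Mrpl57 at chr14:57826134-57826233, Mrpl45 at chr11:97315616-97315715, Mrpl27 at chr11:94653667-94653766 and Mrpl52 at chr14:54426809-54426908.
Mrps6: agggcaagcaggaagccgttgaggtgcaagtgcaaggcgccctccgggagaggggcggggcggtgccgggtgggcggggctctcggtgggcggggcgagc
Mrpl12: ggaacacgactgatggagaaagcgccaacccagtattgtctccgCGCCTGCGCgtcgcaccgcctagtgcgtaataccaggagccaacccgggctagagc
Mrpl57: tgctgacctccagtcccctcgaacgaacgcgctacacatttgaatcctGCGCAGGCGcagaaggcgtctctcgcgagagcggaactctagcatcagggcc
Mrpl45: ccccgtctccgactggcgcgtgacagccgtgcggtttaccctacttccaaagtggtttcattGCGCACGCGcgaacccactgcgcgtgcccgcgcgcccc
Mrpl27: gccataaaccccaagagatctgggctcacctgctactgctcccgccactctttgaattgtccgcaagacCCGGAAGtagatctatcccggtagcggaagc
Mrpl52: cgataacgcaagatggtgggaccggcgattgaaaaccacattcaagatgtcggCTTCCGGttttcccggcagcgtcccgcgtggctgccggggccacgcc
The letters seen here depend on the genes shown. In the full windows Mrpl39, which ranked above Mrpl27 at 8 h, held NRF1 letters and no ETS letters, while at the low end Mrps26 and Mrpl57 held both and Mrpl2 neither, so no link between letters and direction is read.

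No mitochondrial ribosomal gene was called between the genotypes. At M0 0 of the 76 were called between Treml4-/- and wt cells, beside 0.0993% of all tested genes. At 8 h and 12 h 0 were called too, beside 0.091% and 0.132%. Over all 12086 tested genes these shares were 12, 11 and 16 genes. The 0 counts are near them and are not read as a result about the members. With DESeq2 the paper reported more genes in M1 macrophages at the same limits. By limma's unadjusted p under 0.05 the counts among the 76 were 0, 6 and 0. With voom they were 1, 6 and 0, and with median of ratios scaling 0, 13 and 2. No share of all tested genes is set beside these unadjusted counts, so they are not read as a genotype effect. The median log2 fold change, Treml4-/- minus wt, was 0.08 at M0, 0.0021 at 8 h and 0.04 at 12 h, with a median SE of 0.12 per gene. All genes tested had medians of 0.03, 0.07 and 0.05.

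At M0 the extremes were Mrps11 (0.30) and Mrps28 (0.22) on the high side and Mrpl52 (-0.04) and Mrpl57 (-0.04) on the low side. Mrps11 had 15.6 and 15.9 CPM in wt and 20.5 and 18.7 CPM in Treml4-/- cells, which did not overlap, but its limma adjusted p was 1.0. At 8 h Mrpl1 (0.41) and Mrps22 (0.37) were highest and Mrpl54 (-0.35) and Mrpl34 (-0.32) lowest. Mrpl54 had 31.4 and 30.0 CPM in wt and 26.8 and 21.2 CPM in Treml4-/- cells at 8 h (limma adjusted p = 0.171), and without replicate 1 of Treml4-/- M1-8 h it was the 1 gene called (-0.51, limma adjusted p = 0.0357). At 12 h Mrpl47 (0.28) and Mrpl1 (0.25) were highest and Mrps34 (-0.21) and Mrps12 (-0.18) lowest. Mrps34 shares 37.0% of its exon bases on the same strand with Nme3 and 63.4% on the opposite strand with Mapk8ip3. For Mrpl47 24.2% are shared on the opposite strand.

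The response to LPS was not called different between the genotypes for any of the 76 genes. The interaction was the LPS change in Treml4-/- minus that in wt cells. With limma it was called for 0 at 8 h and 0 at 12 h, beside 1 of 12086 tested genes (0.00827%) at each time. These 0 counts are not read as a result about the members. By limma's unadjusted p under 0.05, with no share of all genes beside them, the counts among the 76 were 1 and 0. The one was Mrpl54 at 8 h (-0.42, SE 0.16, limma adjusted p = 0.729). In wt cells alone the median change was -1.0 at 8 h and -1.30 at 12 h, and in Treml4-/- cells -1.14 and -1.32. Across the 76 genes the changes in the 2 genotypes, which share no library, had a Pearson r of 0.965 at 8 h and 0.985 at 12 h, beside 0.988 and 0.991 over all tested genes, where genes are not independent replicates.

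**Figure D5:**
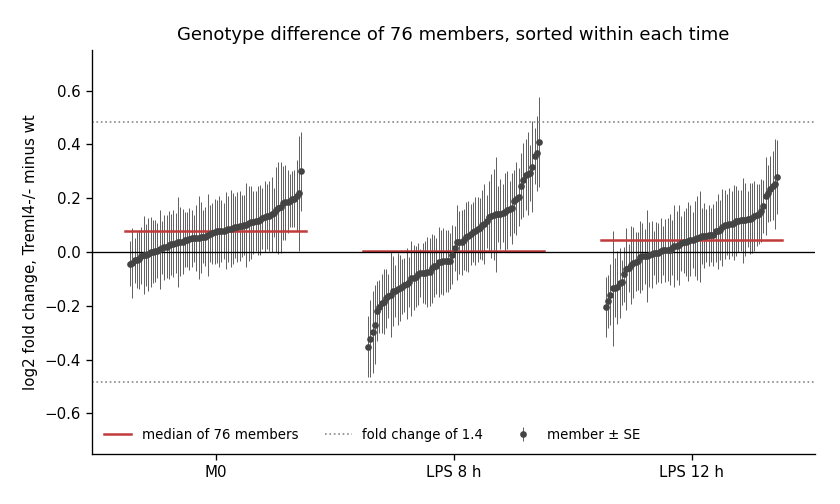
Log2 fold change (± SE), Treml4-/- minus wt, of the 76 genes at M0, 8 h and 12 h of LPS, sorted within each time, with red lines at the medians and dotted lines at a fold change of 1.4. All points lie between -0.35 and 0.41, inside the dotted lines.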

How the data were processed

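Poly(A) RNA of BMDM was sequenced in 12 libraries, grouped by the labels of genotype, LPS time and replicate. The authors aligned reads with STAR (to mm10, per the submitters' processing notes), counted them with Subread, and deposited log2 CPM with a prior of 0.25 reads. The annotation and the use of strand in counting are not given in the sources used here. In GENCODE 8 of the 77 genes share exon bases with another gene on the same strand and 27 on the opposite strand. CPM and whole reads were recovered from the deposited log2 values (100% within 0.05 reads of a whole number).

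The filter kept genes that reached 1 CPM in 2 or more libraries. These were fitted with limma 3.58.1 (R 4.3.3, trend) on log2(CPM + 1), with 1 mean per condition and Benjamini-Hochberg adjustment over 12086 genes. The DESeq2 model the authors used was not run here, and voom on the recovered reads was an alternative. The fit was tried on simulated reads in which only a small part of the genes changed, so that trial does not bear on the choice of scaling. Exon lengths and overlaps came from GENCODE M21 (GRCm38) and promoters from RefSeq. Python 3.11.15, numpy 2.4.6, pandas 2.3.3 and matplotlib 3.10.9 handled tables and figures.

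The members and gene lists were chosen with earlier results of these data known, and lists came from textbook knowledge. Genes named were the 6 largest called changes in each direction of each LPS comparison, the 2 largest in each genotype comparison, the 4 highest and 4 lowest per kilobase at M0, genes under the filter, Mrps18a, Mrps18b, Mrps18c, Mrps36, Mrpl12, Mrps12, Mrpl58, Mrpl44 and Mrpl45, and up to 3 called in each direction of each other list, of which 1 is not reported here. Mrpl27, Mrpl39, Mrpl13, Mrpl46, Lrpprc, Gfm1, Lars2, Esrra and Gabpa were added to these once their values had been seen. Alternatives tried were other pseudocounts, filters, scalings, voom, deposited log2 CPM, fewer libraries, replicate blocks, no fold limit and leaving out each library.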

Additional observations from a re-analysis of the deposited data

How the results depend on the processing

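With at least 48008751 reads per library, all tested members lay far above 1 read at M0, and 2 replicates per condition limit the comparisons. Median of ratios scaling lowered the members called from 67 to 32 at 8 h (24 lower, 8 higher) and from 68 to 44 at 12 h (39 lower, 5 higher), with the same counts when the replicate block within genotype was added, an alternative chosen after seeing the data. Upper quartile scaling called 4 higher at 8 h and 4 at 12 h. Without a minimum fold change 3 were higher at 8 h and 2 at 12 h, and between the LPS times 43 were called, 37 lower and 6 higher. The shares of all tested genes given above do not apply to the upper quartile counts or to those without a fold limit. These counts are therefore not read as a result about the members. Leaving out each library in turn gave 0 to 1 higher at 12 h against M0 and 0 to 1 between the genotypes at 8 h. Among the genes named for their roles, log2 fold changes that turned sign under median of ratios scaling included those of Mrps18a (0.1475 at 8 h, 0.0657 at 12 h), Mrpl44 (0.26 and 0.31), Mrpl45 at 12 h (0.24) and Mrps12 between the LPS times (0.01005, and 0.02086 under upper quartile scaling). Between the LPS times, leaving out each library gave -0.01291 to 0.09296 for Mrps18c and -0.05759 to 0.06473 for Mrpl44, neither of them called. With the replicate block the counts stayed at 67, 68 and 24 for LPS and 0 for each genotype comparison. Replicate numbers were not shown to pair cultures, since replicate differences in pairs of conditions correlated at -0.272 to 0.462, and a block crossed at M0, added after seeing the data, called 0. Of the values for single genes and medians, 1028 stayed the same. For a gene this meant the same direction and call, and for a median a shift under the replicate SD. Of the medians 21 moved further, and of the values for single genes 28 lost a call, 5 gained one and 11 turned sign. The causes were not tested.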
